A study of Mus musculus with 48 samples.

Results

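A set of 189 cDNA clones read steadily higher in murine erythroleukemia (MEL) cells that differentiate readily than in MEL cells that differentiate poorly, under every drug and at every time examined. This direction was taken from column headers and was not tested. The 189 clones were chosen from 18494 clones that had a value in all 12 conditions, out of 22171 listed clones. The rule asked for a log2 ratio of high over low cells above 0 in all 12 conditions, a mean of the 12 ratios of at least 0.25, and a mean gain between 6 h and 36 h below 0.6. Of the 18494 clones, 320 were above 0 in all 12 conditions (1.73%), 202 of these also reached the mean, 13 were removed by the limit on the gain with time, and 189 remained (1.02%). The ratio of high over low cells therefore chose the clones, and it is given below as a description, with no test.

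HD-MEL cells, which are highly inducible to differentiate, were set against LD-MEL cells, which are poorly inducible, on the same 2-colour array after the same treatment. The labels name T-3-Cl-2-0.fl as the parent line. Both were cultured with 3.0 mM hexamethylene bisacetamide (HMBA), 15 nM trichostatin A (TSA) or 1.0% dimethyl sulfoxide (DMSO) for 6, 12, 24 or 36 h. For every condition, of 12 in all, the RNA was hybridised on 4 arrays that the labels call technical replicates, so the 48 arrays hold no repeat cultures, each kind of cell is 1 clone, and no untreated cells were analysed here. DMSO is itself an inducer of these cells, and a difference from DMSO is a difference between inducers.

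MEL cells are erythroid precursors transformed by the Friend virus complex and arrested before they make much hemoglobin. Chemical inducers such as DMSO and HMBA, and inhibitors of histone deacetylases such as TSA, release this arrest: the cells begin to make globin and heme, and then leave the cell cycle. Cell clones of 1 parent line can differ widely in the share of cells that respond, and pairs of responsive and poorly responsive clones are used to look for expression differences that go with this capacity. The deposited files identify array elements only by cDNA clone, and no table used here pairs these with genes. The erythroid identity of the cells was therefore not checked against marker genes, and the clones below are named by their identifiers alone.

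The arrays listed between 19237 and 20581 clones each (median 20031), and no 2 arrays shared over 1% of their target intensities. Channel order was turned on arrays 3 and 4 of each condition. The files have a column for the target RNA, which the labels name as HD, and a column for the control RNA, which they name as LD, while the dye labels do not change from array to array although dye swaps are part of the stated design. Raw ratios of arrays 3 and 4 correlated with those of arrays 1 and 2 at r between -0.82 and -0.38 across clones, and after loess normalization between -0.52 and 0.02. The direction HD over LD is taken from the column headers alone, and the ratios themselves do not establish it. With arrays 3 and 4 turned, the same rule would choose 1106 clones, 6 of them among the 189, and the mean ratio of the 189 clones would have a median of 0.0018, with 95 of them above 0. The rule asks for a high mean of both array pairs, whereas the turned mean sets these pairs against each other. A turned median near 0 was therefore largely fixed by the choice. The rule for clones lower in HD cells would choose 1624 clones with arrays 3 and 4 turned, against 67 as read. Each condition value weights the array pair 1 and 2 and the array pair 3 and 4 equally.

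The excess in HD cells was small. The mean ratio of the 189 clones ran from 0.25 to 1.19 on the log2 scale, with a median of 0.30 (1.23-fold) and quartiles of 0.28 and 0.34, while the median of all 18494 clones was -0.0073. It lay between 0.25 and 0.35 for 149 of the 189 clones, reached 0.5 for 8 of them and 2-fold for 1, of 4 such clones among all 18494 (0.0216%). The SD of a member over the 12 conditions had a median of 0.12, against 0.18 over all clones and 0.14 over the other clones of the brightest 25%. The demand for 12 values above 0 itself favours a small SD, so this comparison describes the choice. The lowest of a member's 12 values lay between 0.00049 and 0.31 (median 0.098), so that many of them came close to 0 in at least 1 condition. Just inside the limit on the mean stood clones at 0.2505, 0.2508 and 0.2510, and just outside it clones at 0.2496, 0.2488 and 0.2482. Just inside the limit on the gain with time stood clones at 0.560, 0.469 and 0.452, and just outside it clones at 0.707, 0.814 and 1.03.

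Across conditions, the members' median ratio was highest in HMBA early and lowest in DMSO at 12 h. Under HMBA it was 0.41 at 6 h, 0.40 at 12 h, 0.28 at 24 h and 0.27 at 36 h. Under TSA it was 0.30 at 6 h, 0.37 at 12 h, 0.27 at 24 h and 0.23 at 36 h. Under DMSO it was 0.30 at 6 h, 0.17 at 12 h, 0.33 at 24 h and 0.31 at 36 h. The median of all clones stayed between -0.017 and 0.017 in the 12 conditions. This order rests on the direction of arrays 3 and 4: with these turned, the members' medians ran between -0.14 (TSA 12 h) and 0.11 (DMSO 36 h), with -0.013 at HMBA 6 h and -0.0048 at DMSO 12 h. A member had its highest ratio at HMBA 6 h in 55 cases, at HMBA 12 h in 40 and at DMSO 24 h in 23. It had its lowest ratio at DMSO 12 h in 75 cases and at TSA 36 h in 44. Averaged over the drugs, the median ratio was 0.34 at 6 h, 0.31 at 12 h, 0.29 at 24 h and 0.27 at 36 h. The difference of 36 h minus 6 h, which the rule bounds from above, ran from -0.59 to 0.56 with a median of -0.076, and was below 0 for 144 of the 189 clones (76.2%), against 51.4% of all clones. At TSA 36 h, where ratios spread most widely over all clones, 4 of the 189 clones reached 2-fold, of 140 such clones among all.

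**Figure D1:**
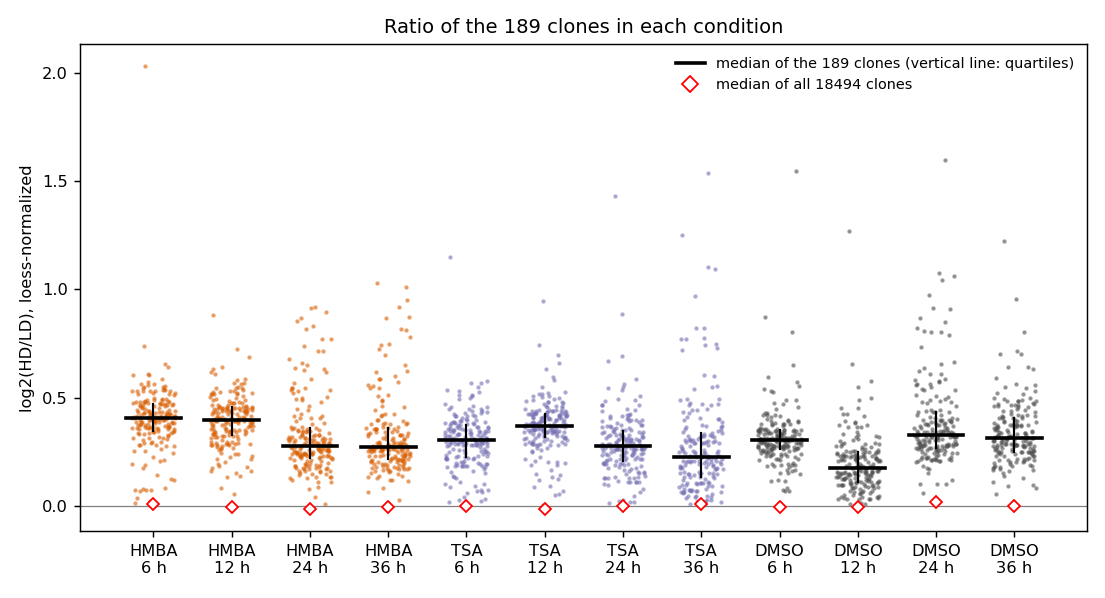
Log2 ratio of HD over LD cells of the 189 clones in each drug and time condition. Each point is 1 clone in 1 condition (mean of both array pairs), bars are medians with quartiles, and open diamonds are medians of all 18494 clones. Every point lies above 0 by the rule, the medians run between 0.17 (DMSO 12 h) and 0.41 (HMBA 6 h), and few points exceed 1.

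The clone with the highest mean ratio was H3144G06, at 1.19 ± 0.51 (SD, n = 12 conditions), 2.28-fold. Its ratio under HMBA was 2.03 at 6 h, 0.88 at 12 h, 0.48 at 24 h and 0.19 at 36 h. Under TSA it was 1.15, 0.95, 1.43 and 1.54 at 6, 12, 24 and 36 h, and under DMSO 1.55, 1.27, 1.60 and 1.22 at the same times. It was thus lower at each later time under HMBA, with no such order under TSA or DMSO, although at HMBA 36 h only arrays 2 and 4 listed it. The clone was listed on 42 arrays and lay above 0 on 40 of them. It was a dim element, with a log2 level of both cells together of 4.47 to 7.79, and with arrays 3 and 4 turned its mean ratio was 0.28, which ranked 11 among the 189 clones.

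H3031F04 came second, at 0.68 ± 0.25 (SD, n = 12 conditions), 1.60-fold. Its ratio was 0.55, 0.63, 0.87 and 1.01 under HMBA at 6, 12, 24 and 36 h. Under TSA it was 0.29, 0.30, 0.89 and 0.82, and under DMSO 0.65, 0.50, 1.05 and 0.55, at the same times. Under HMBA and TSA the values at 24 and 36 h stood above those at 6 and 12 h, and the DMSO values overlapped both. The clone was above 0 on 43 of 48 arrays, with a mean of 1.02 on arrays 1 and 2 and 0.33 on arrays 3 and 4. With arrays 3 and 4 turned its mean ratio was 0.34, above that of H3144G06, a value that reflects the gap between its array pairs. The next 13 clones in order of the mean ran from 0.46 to 0.64. Among these 13, neighbours in the order differed by less than their SD over the conditions.

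The steadiest clone, among those with both array pairs above 0 in all 12 conditions, was H4049G07, at 0.31 ± 0.074 (SD, n = 12 conditions). Its 12 values ran from 0.19 to 0.41, and 45 of 48 arrays were above 0. H3078B11 followed at 0.27 ± 0.077 (SD, n = 12 conditions), with values from 0.15 to 0.41 and all 48 arrays above 0. H3018A08 combined a higher mean with a value above 0 on all 48 arrays: it averaged 0.56 ± 0.19 (SD, n = 12 conditions), with condition values from 0.31 to 0.92. The lowest condition value of each of these 3 clones stood above 0.098, the median of the lowest values over the set. H4049G07 averaged 0.18 on arrays 1 and 2 and 0.44 on arrays 3 and 4, and the cause of this difference was not tested. H3018A08 averaged 0.54 and 0.58 on these pairs, which lay close together. Turning arrays 3 and 4 sets the pairs against each other, and would take H4049G07 to -0.13 and H3018A08 to -0.016.

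**Figure D2:**
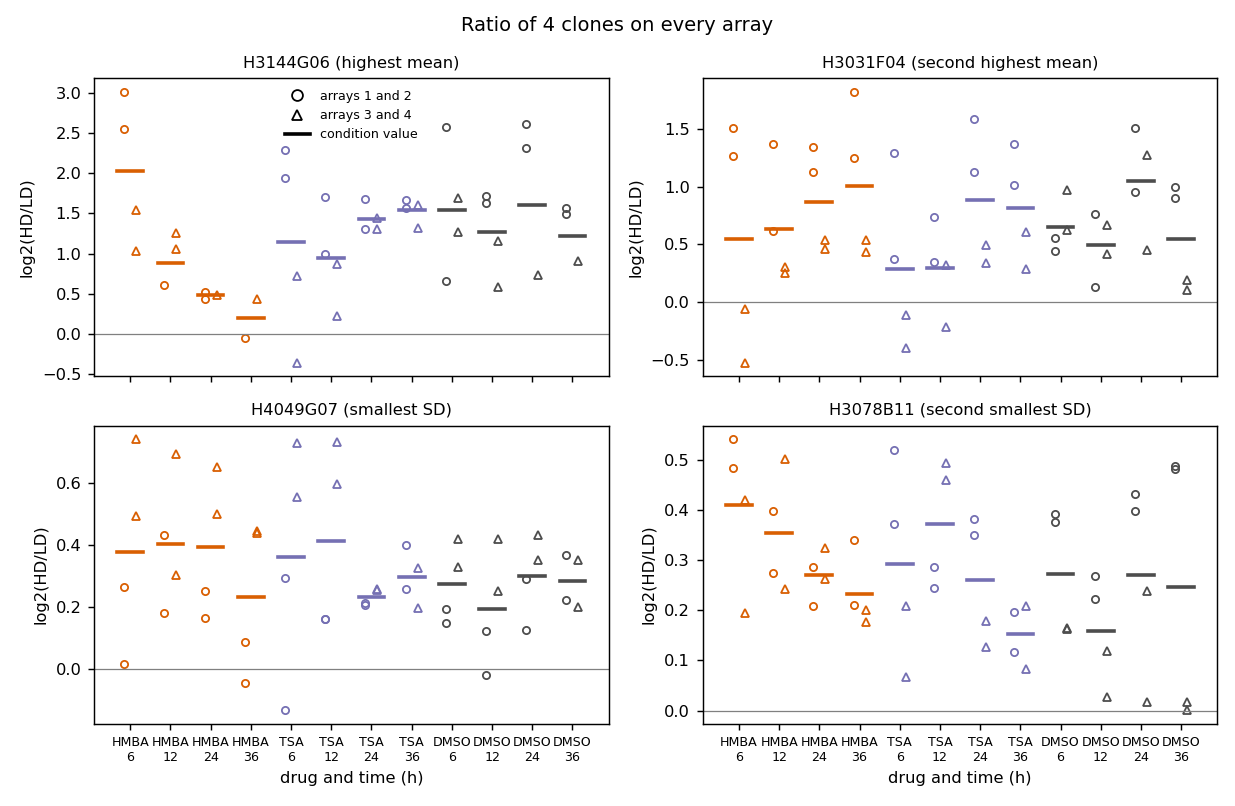
Log2 ratio of HD over LD cells on every array, for the 2 clones with the highest mean and the 2 with the smallest SD among clones with both array pairs above 0 in all 12 conditions. Circles are arrays 1 and 2, triangles are arrays 3 and 4, and bars are condition values. H3144G06 and H3031F04 spread by over 1 log2 unit within several conditions, and all 48 values of H3078B11 lie above 0.

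The rule rests on condition means, and single arrays showed how evenly these were carried. A member lay above 0 on a median of 43 arrays (range 32 to 48), and 80 of the 189 clones did so on at least 44 arrays, of 107 such clones among all (0.579%). On every array that listed them, 6 clones were above 0, with means between 0.27 and 0.56, and these were also the only 6 such clones of 18494 (0.0324%). Both array pairs were above 0 in all 12 conditions for 35 of the 189 clones, of 42 such clones among all (0.227%). Clones of either kind are above 0 in all 12 conditions by definition, so their place among the members was partly fixed by the rule. The mean over conditions was above 0 on each array pair for 182 of the 189, against 11.7% of all clones, a share that the rule itself raises. In the remaining 7, the mean of 1 pair lay below 0. By condition, the number of members with both pairs above 0 ran from 112 at TSA 6 h to 180 at TSA 12 h. Of all 18494 clones, 2182 and 4461 had both pairs above 0 in these conditions. The SD between arrays within a condition had a median of 0.25 over the members, about as large as their mean ratio, against 0.37 over all clones.

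Arrays left out of the choice gave the same measure in data the choice had not used, though from the same RNA and with the array of the same channel order still in the choice. When the rule was applied without array 1 of each condition, it chose 171 clones, and on array 1 their mean ratio had a median of 0.29 and was above 0 for 167 (97.7%), against 48.8% of all clones. Without array 2 it chose 181 clones, whose median on array 2 was 0.28, with 177 above 0 (97.8%), against 48.5% of all clones. Without array 3 it chose 170, whose median on array 3 was 0.30, with 162 above 0 (95.3%), against 52.1% of all clones. Without array 4 it chose 182, whose median on array 4 was 0.28, with 171 above 0 (94.0%), against 51.5% of all clones. Of the clones chosen in these ways, 145 to 157 were among the 189. The medians on the array left out were close to the 0.30 of the whole set. As each such array shares its RNA and channel order with an array kept in the choice, this closeness was partly built in. It describes technical repeatability only.

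The clones were bright. Their mean log2 intensity over both channels had a median of 11.6, against 9.09 over all clones, and 119 of the 189 (63.0%) lay among the brightest 25% of the 18494 clones, against 8 among the dimmest 25%. The other clones of the brightest 25% had a median ratio of -0.012 over the 12 conditions and between -0.033 and 0.0037 in single conditions. Members among the dimmest 25% had a median ratio of 0.43, and those among the brightest 25% had 0.30. No member reached a channel intensity above 65000 on any array. What part brightness has in the choice of these clones was not tested. In their identifiers the members spread over 121 of 238 plates, with at most 5 on 1 plate and 69 plates holding 1 member, and 3 pairs stood in adjacent wells. Part 1 of the array pair held 113 of them (59.8%), against 55.0% of all clones.

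**Figure D3:**
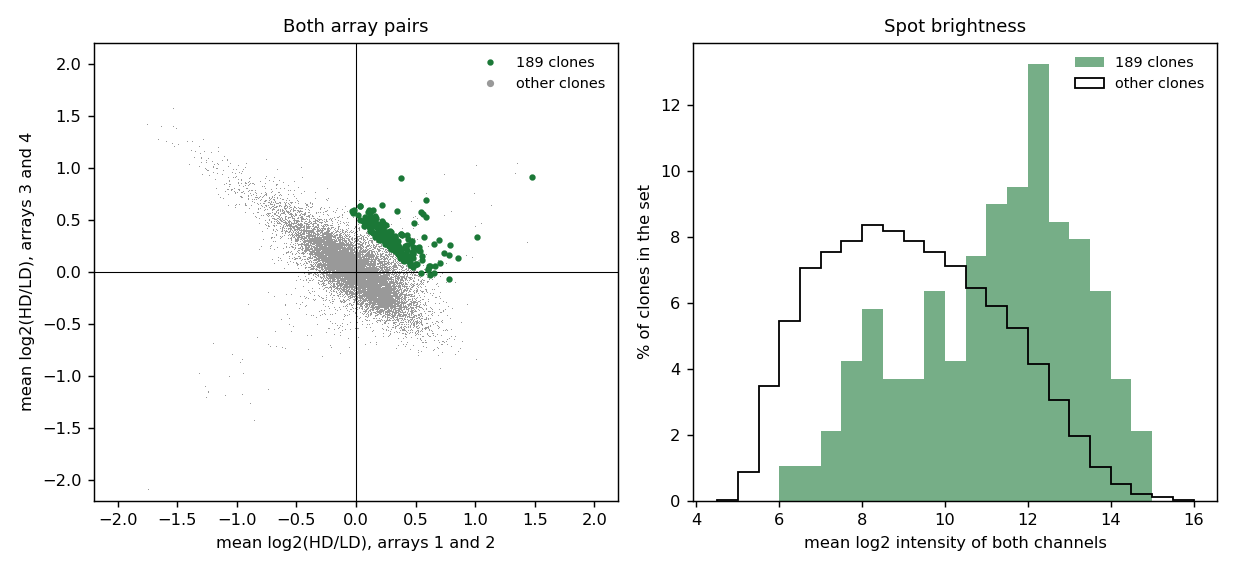
Left, mean log2 ratio of HD over LD on arrays 1 and 2 (x axis) against that on arrays 3 and 4 (y axis), with 1 point per clone. Right, mean log2 intensity of both channels as a share of the 189 clones (filled) and of the other clones (line). Most other clones lie along a falling diagonal around 0, the 189 clones sit in the upper right quadrant except for 7, and their intensities centre on 11.6.

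Whether the drugs moved the excess was tested on the log2 ratio, with drug and time as additive terms in limma over all 18494 clones. The rule did not use differences between drugs, although its demand for values above 0 limits them. No member differed between HMBA and DMSO after Benjamini-Hochberg adjustment, and no clone of the 18494 did (0%). At an unadjusted p under 0.05 there were 2 members and 748 clones in all. With arrays 3 and 4 turned, 21 clones were called in all, still with no member, and 26 members lay at an unadjusted p under 0.05. The members' difference of HMBA minus DMSO had a median of 0.056, against 0.013 over all clones, and was above 0 for 152 of the 189 (80.4%), against 54.2% of all clones. It ran from -0.51 to 0.32, and a member's 95% confidence interval extended by a median of 0.23 to either side. That margin compares with a median mean ratio of 0.30. The shift towards HMBA depends on the direction of arrays 3 and 4. With these turned, the members' median ratios under HMBA were -0.013, 0.0096, -0.077 and -0.049 at 6, 12, 24 and 36 h. Under DMSO they were 0.055, -0.0048, 0.065 and 0.11, above those under HMBA except at 12 h.

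Between TSA and DMSO again no member was called, of none among all clones (0%), with 9 members and 2188 clones in all at an unadjusted p under 0.05. With arrays 3 and 4 turned, 120 clones were called in all, again with no member, and 23 members lay at an unadjusted p under 0.05. The members' difference had a median of -0.0048, against 0.012 over all clones, and was above 0 for 92 of the 189. It ran from -0.45 to 0.41. For H3144G06 the ratio averaged 0.90 ± 0.81 under HMBA and 1.27 ± 0.27 under TSA, against 1.41 ± 0.19 under DMSO (SD, n = 4 times each). Its difference of HMBA minus DMSO was -0.51 (95% confidence interval -1.06 to 0.028, limma adjusted p = 0.995), and that of TSA minus DMSO was -0.14 (-0.69 to 0.40, limma adjusted p = 0.871). For H3031F04 the differences were 0.080 (-0.18 to 0.34) and -0.11 (-0.37 to 0.15). The comparisons with DMSO share the DMSO arrays.

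A second measure was the level: the mean log2 intensity of both channels of an array, scaled between arrays, which holds HD and LD cells in equal parts. The rule set no limit on it, but loess used the unscaled intensity and 119 of the 189 clones lay among the brightest 25%. The level is the same whichever way arrays 3 and 4 are read. Values for HD or LD cells alone are this level with equal parts of the ratio added or taken off. They are therefore not separate measurements. In bulk RNA, fewer cells that express a gene and less RNA per cell cannot be told apart. Because the arrays are technical, the tests set differences against the spread left between the 12 conditions after drug and time. Levels are compared within a clone and never between clones.

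With time, 15 of the 189 clones changed in level between 36 h and 6 h: 3 rose and 12 fell (7.94%). Over all clones 10.3% were called, 5.71% higher and 4.54% lower. The members' median difference was 0.0036, against -0.030 over all clones, and 95 of the 189 were above 0. For the difference of 24 h minus 6 h, no member was called by limma, against 0.735% of all clones, 0.146% higher and 0.589% lower. At an unadjusted p under 0.05 there were 33 members and 3219 clones in all. For 12 h minus 6 h no member was called either, nor was any clone of the whole (0%). Here 12 members and 1133 clones in all lay at an unadjusted p under 0.05.

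The largest rise was that of H4012D03. Its level was 11.1, 11.1, 11.1 and 11.3 under HMBA at 6, 12, 24 and 36 h. Under TSA it was 10.2, 10.2, 10.9 and 11.3, and under DMSO 10.30, 10.23, 11.03 and 11.22, at the same times. At 6 h and 12 h HMBA thus stood above TSA and DMSO, and at 36 h the drugs lay close together. Averaged over the drugs, the level was 11.3 ± 0.049 at 36 h, against 10.5 ± 0.50 at 6 h (SD, n = 3 drugs each), a difference of 0.73 ± 0.20 (SE, limma adjusted p = 0.0388). In HD cells the means were 11.3 at 36 h, against 10.7 at 6 h, and in LD cells 11.2 at 36 h, against 10.4 at 6 h. H3052C08 rose by 0.60 ± 0.16 (SE, limma adjusted p = 0.0345), to 10.2 ± 0.24 at 36 h, against 9.60 ± 0.37 at 6 h (SD, n = 3 drugs each).

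The largest falls were those of H4062C11 and H3089E08. H3089E08 had levels of 9.35, 8.75, 8.30 and 7.59 under HMBA at 6, 12, 24 and 36 h. Under TSA they were 8.34, 8.76, 7.80 and 7.84, and under DMSO 9.65, 9.04, 8.71 and 8.71, at the same times. The level at 36 h lay below that at 6 h under each drug. The difference was -1.07 ± 0.23 (SE, limma adjusted p = 0.0183). H4062C11 fell to 7.85 ± 1.00 at 36 h, against 8.94 ± 0.44 at 6 h (SD, n = 3 drugs each), a difference of -1.10 ± 0.29 (SE, limma adjusted p = 0.0348).

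These counts over time rest on every drug and on the scaling between arrays. Without the DMSO conditions no member was called, and without those of TSA none either, while over all clones 17 and 7 were. Without HMBA 4 members were called (2.12%), against 10.8% of all clones. Without any scaling, where the median of all clones is -0.24, no member was called, against 0.308% of all clones. Leaving out 1 array of each condition gave 8 or 9 members (4.28% to 5.03%), against 6.98% to 9.14% of all clones. The 4 clones named were called in 5 to 7 of 12 alternative settings and kept their direction in each of the 12.

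Under HMBA against DMSO, 29 of the 189 clones differed in level, 15 of them higher and 14 lower under HMBA (15.3%). Over all clones 21.3% were called, 6.42% higher and 14.8% lower. The members' median difference was 0.046, against -0.057 over all clones. The largest gain was that of H3024C11, with levels of 12.2, 12.0, 11.9 and 11.8 under HMBA at 6, 12, 24 and 36 h, against 11.3, 11.2, 10.9 and 10.9 under DMSO. The HMBA values lay above the DMSO values at every time and did not overlap them. It averaged 12.0 ± 0.18 under HMBA, against 11.1 ± 0.20 under DMSO (SD, n = 4 times each), a difference of 0.91 ± 0.14 (SE, limma adjusted p = 0.00198). H3144D05 was higher under HMBA by 0.82 ± 0.18 (SE, limma adjusted p = 0.00824), with a level of 10.8 ± 0.31 under HMBA, against 9.95 ± 0.20 under DMSO (SD, n = 4 times each).

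Lower under HMBA were H4055C03 and H4021G03. H4021G03 had levels of 11.2, 10.9, 11.1 and 10.7 under HMBA at 6, 12, 24 and 36 h, against 11.9, 12.1, 11.4 and 11.7 under DMSO. Again the groups did not overlap. The difference was -0.78 ± 0.15 (SE, limma adjusted p = 0.00511). The dim clone H4055C03 averaged 6.59 ± 0.29 under HMBA, against 7.41 ± 0.33 under DMSO (SD, n = 4 times each), a difference of -0.82 ± 0.18 (SE, limma adjusted p = 0.00884). Without the 12 h conditions 3 members were called (1.59%), against 5.29% of all clones, and without those of 24 h 10 (5.29%), against 9.85%. Without scaling, where the median of all clones is -0.50, there were 45 (23.8%), against 31.5% of all clones, all 45 lower under HMBA, and the 2 rises named were no longer called.

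Under TSA against DMSO, 41 of the 189 clones differed in level, 27 of them higher and 14 lower under TSA (21.7%). Over all clones 26% were called, 12.2% higher and 13.8% lower. The members' median difference was 0.099, against -0.016 over all clones. The largest difference of the set was that of H3111G10. Its level under TSA was 11.2, 10.4, 11.1 and 11.1 at 6, 12, 24 and 36 h, against 9.45, 8.81, 9.18 and 9.49 under DMSO. Every TSA value stood above every DMSO value. The means were 10.96 ± 0.35 under TSA, against 9.23 ± 0.32 under DMSO (SD, n = 4 times each), a difference of 1.73 ± 0.17 (SE, limma adjusted p = 4.78e-05). The values for HD and LD cells hold this same level and differ only by the ratio, so their likeness was not a separate result. For H3111G10 that ratio depended on the array pair: arrays 3 and 4 averaged 0.58, whereas arrays 1 and 2 averaged -0.037. Its ratio exceeded 0 on 37 of 48 arrays, and for both pairs together in only 6 of 12 conditions. The gap between its HD and LD values is therefore not carried by both pairs. Under TSA the level in HD cells was 11.4, 10.7, 11.3 and 11.2, against 9.66, 8.88, 9.27 and 9.59 under DMSO. In LD cells it ran between 10.23 and 11.05 under TSA, against 8.73 and 9.39 under DMSO. The call held in all 13 alternative settings, with differences between 1.56 and 1.77. Under HMBA the clone had levels of 9.59, 9.63, 9.45 and 10.3, a difference from DMSO of 0.51 (limma adjusted p = 0.0480).

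H3144G06, the clone with the highest ratio, also had the second largest gain under TSA. Its level was 6.70, 7.09, 6.76 and 7.79 under TSA, against 5.95, 6.14, 5.85 and 5.68 under DMSO at 6, 12, 24 and 36 h. The groups did not overlap, and the difference was 1.18 ± 0.30 (SE, limma adjusted p = 0.0124), which was 0.88 without the 36 h conditions (limma adjusted p = 0.0654). In HD cells its level was 7.28, 7.57, 7.48 and 8.56 under TSA, against 6.72, 6.78, 6.65 and 6.29 under DMSO. In LD cells it was 6.13, 6.62, 6.05 and 7.02 under TSA, against 5.17, 5.51, 5.05 and 5.07 under DMSO. Both values were thus higher under TSA at every time, although they share the level and are not separate measurements.

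Lower under TSA were H3089E08 and H4062C11, the clones that also fell with time. H3089E08 averaged 8.18 ± 0.46 under TSA, against 9.02 ± 0.44 under DMSO (SD, n = 4 times each), a difference of -0.84 ± 0.20 (SE, limma adjusted p = 0.00899). H4062C11 averaged 7.86 ± 0.82 under TSA, against 8.68 ± 0.81 under DMSO (SD, n = 4 times each), a difference of -0.82 ± 0.25 (SE, limma adjusted p = 0.0300). The call of H4062C11 held in 7 of 13 alternative settings, with differences between -1.11 and -0.43 and adjusted p up to 0.152. The values of both clones overlapped between the drugs across times. Without scaling between arrays 4 members were called (2.12%, against 10.5% of all clones), and with median scaling 23, of which 8 were higher and 15 lower (12.2%, against 27.5%). Without array 4 of each condition there were 22 (11.8%, against 19.03% of all clones), without 12 h 12 (6.35%, against 15.2%), without 24 h 14 (7.41%, against 13.4%) and without 36 h 26 (13.8%, against 20.5%).

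**Figure D4:**
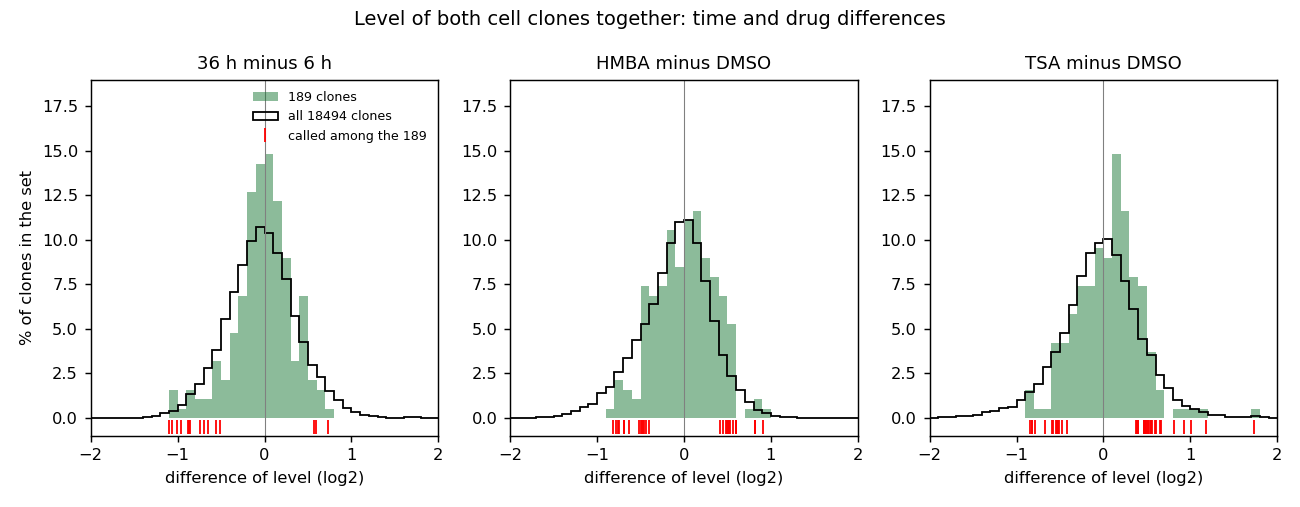
Differences of level (log2) between 36 h and 6 h, HMBA and DMSO, and TSA and DMSO, as a share of the 189 clones (filled) and of all 18494 clones (line). Red ticks mark the 15, 29 and 41 members that passed the test in these comparisons. The distributions of the 189 clones centre near 0 in each panel, and H3111G10 stands alone at 1.73 in the panel for TSA.

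Against the counts over all clones, the members were called at shares of 7.94% with time, 15.3% under HMBA and 21.7% under TSA, where all clones were called at 10.3%, 21.3% and 26%. None of these shares, which count both directions, was above that of all clones in this fit. By direction, the members' share was above it for falls with time (6.35%, against 4.54%). It was also above for clones higher under HMBA (7.94%, against 6.42%) and under TSA (14.3%, against 12.2%). It was below for rises with time (1.59%, against 5.71%). The same held for clones lower under HMBA (7.41%, against 14.8%) and under TSA (7.41%, against 13.8%). These differences between shares were not tested. With an offset of 50 added to the intensities, the members' share under TSA in both directions was 27.5%, against 27.3% of all clones. The sets of clones that moved with a drug or with time held both directions in each comparison. In the clones named the means of HD and of LD cells moved the same way, with HD above LD in every condition as the rule demands. Both means are made from the shared level and from a ratio that the rule limits, so this likeness was largely fixed by the choice.

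**Figure D5:**
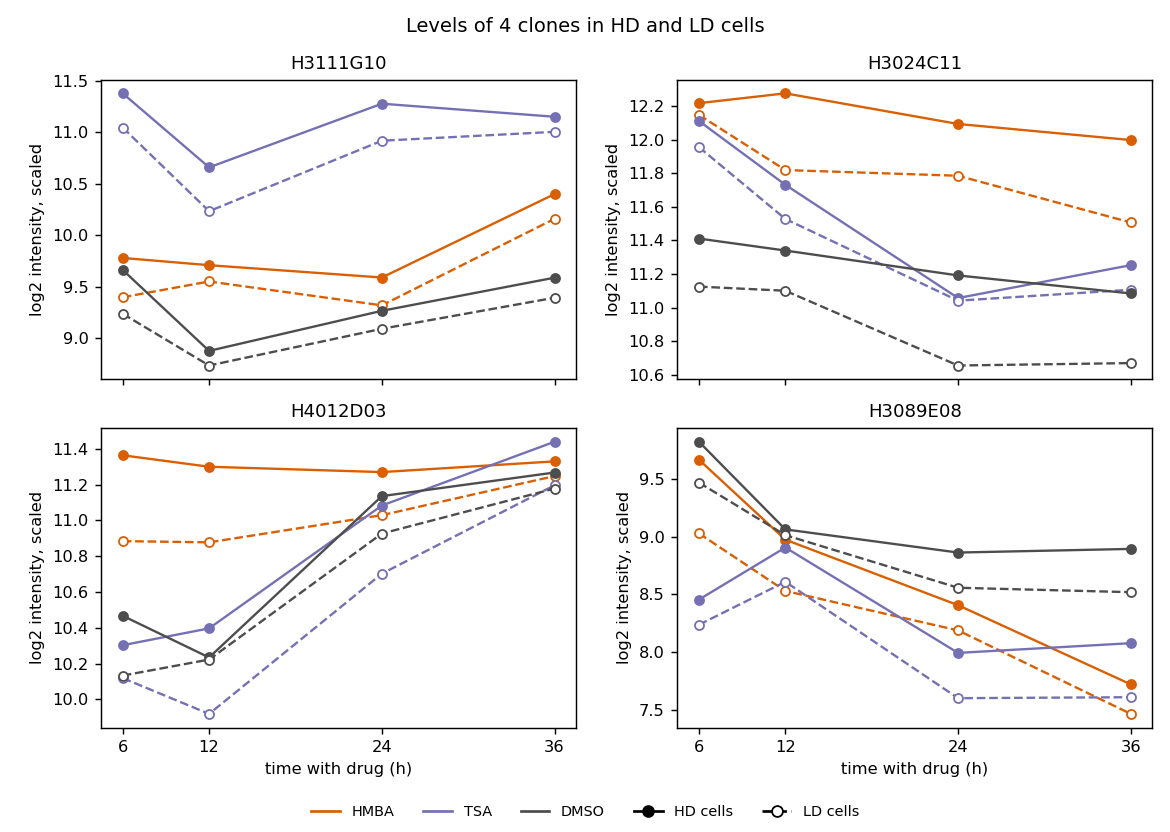
Levels (scaled log2 intensity) of 4 clones by time with HMBA, TSA and DMSO. Filled symbols with solid lines are HD cells and open symbols with dashed lines are LD cells, each point a condition mean over both array pairs. HD and LD values are the shared level with equal parts of the ratio added and taken off. For each drug and time the HD value lies above the LD value by the rule. H3111G10 is highest under TSA, H3024C11 under HMBA, H4012D03 converges at 36 h and H3089E08 declines.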

How the data were processed

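RNA of HD-MEL and LD-MEL cells was hybridised together on 48 2-colour cDNA arrays, 12 conditions of 4 technical arrays. Each array was deposited in 2 parts, with 1 intensity per clone in a target and in a control column, per the file headers. No background column or flag was present, and no further background correction was made. A deposited table of log2 ratios by the authors served as an alternative only. How that table was normalized, and how clones came to be listed, are not stated in these sources. For each part of an array, loess against the mean log2 intensity (span 0.3) was subtracted from the log2 ratio of target over control, with R 4.3.3 and limma 3.58.1. A condition value is the mean of the means of arrays 1 and 2 and of arrays 3 and 4. The level is the mean log2 intensity of both channels, quantile-scaled across arrays within each part.

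Levels and ratios were fitted over all 18494 clones with limma (drug plus time, 12 conditions, 6 residual degrees of freedom), with Benjamini-Hochberg adjustment at 0.05. The scripts were tested on simulated data. P-values measure only the spread between conditions, and the number of arrays limits the precision. The members, the tests and the naming rule were chosen with earlier results of these data known. That rule names the highest means, the steadiest clones, those above 0 on every array and the largest called differences of each comparison. As the files do not pair clones with genes and no table used here does (0 identifiers matched), it was narrowed to 2 clones a list or direction, and pathway lists, cell type markers, promoters and sequences were not analysed here. Ratios of same-numbered arrays deviated together across conditions (r between 0.22 and 0.64, median 0.41), but the difference of arrays 1 and 2 did not (median r 0.0072), so the numbers mark channel order. Levels showed no such pairing (r between -0.37 and 0.48, median -0.014). Alternatives were other centring, spans, offsets and scalings, removal of dim clones, the authors' table, arrays 3 and 4 turned, a replicate block, and leaving out an array, a drug or a time.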

Additional observations from a re-analysis of the deposited data

Results flagged for a closer look

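Within a condition's 4 arrays, a single value stood far from the other 3 in 10 of 181 groups examined for the clones named, where chance alone flags about 1 in 20, or 9.05 groups. The ratio of H3018A08 at HMBA 24 h was 1.05 on array 4, against 0.867 to 0.882 on the others. The level of H4012D03 was 10.9 on array 4 at DMSO 36 h, against 11.3 on the others, and 9.65 on array 1 at TSA 12 h, against 10.3 to 10.4. H3052C08 had a level of 10.3 on array 4 at DMSO 36 h, against 9.97 to 10.0. For H3024C11 it was 11.4 on array 2 at HMBA 24 h, against 12.1 to 12.2, 12.2 on array 1 at TSA 12 h, against 11.4 to 11.5, and 10.7 on array 2 at DMSO 6 h, against 11.4 to 11.5. H4055C03 had a level of 6.18 on array 4 at TSA 36 h, against 7.01 to 7.15, and 6.05 on array 2 at DMSO 36 h, against 7.14 to 7.30. The level of H3144G06 at TSA 6 h was 6.02 on array 4, against 6.87 to 7.03.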

How the results depend on the processing

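The number of clones chosen was 1106 with arrays 3 and 4 turned, 96 with a mean of at least 0.3, 35 with both array pairs above 0 in all 12 conditions, and 170 to 182 leaving out 1 array of each condition. In the other alternatives it stayed within 1.5 times of 189. With arrays 3 and 4 turned, the mean ratio fell below 0 for H4049G07 (-0.13), H3018A08 (-0.016), H3039D11 (-0.046), H4012D03 (-0.057), H3052C08 (-0.23), H4062C11 (-0.13), H3089E08 (-0.0040), H4021G03 (-0.031) and H3111G10 (-0.31). A turned mean falls below 0 wherever arrays 3 and 4 averaged higher than arrays 1 and 2, and lies near 0 where the pairs were alike. The cause of differences between the pairs was not tested. Members called between 36 h and 6 h numbered 0 without scaling, 9 with median scaling, 8 to 9 leaving out 1 array of each condition, 0 without DMSO or without TSA, and 4 without HMBA. Over all clones the shares called were 0.308% without scaling, 6.11% with median scaling and 6.98% to 9.14% leaving out 1 array. They were 0.0919% without DMSO, 0.0379% without TSA and 10.8% without HMBA. Under HMBA against DMSO the members called numbered 45 without scaling, 20 to 26 leaving out 1 array, 3 without 12 h and 10 without 24 h. Over all clones 31.5%, 15.8% to 18.7%, 5.29% and 9.85% were called in these settings. Under TSA against DMSO they numbered 4 without scaling, 23 with median scaling, 22 to 37 leaving out 1 array, 12 without 12 h, 14 without 24 h and 26 without 36 h. Fits with fewer drugs or times hold fewer conditions, and over all clones the shares called also fell in each of these except without HMBA (10.8%). With the array number as a replicate block, in a fit of the 48 technical arrays with condition as a random block (correlation 0.19), 27 (14.3%), 64 (33.9%) and 63 (33.3%) members were called in these 3 comparisons, against 17.3%, 28.4% and 33.0% of all clones. The members' share thus stood above that of all clones under HMBA, and slightly so under TSA, in this fit. Both shares stood below it in the fit of condition values. The block left the ratio comparisons at 0 members called, as did every other alternative run. Of 147 recomputed level differences of named clones, 39 lost the call and none changed direction.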

Other observations

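The rule turned round, with a log2 ratio below 0 in all 12 conditions, a mean of at most -0.25 and the same limit on the change with time, chose 67 clones, against 189 higher in HD cells. Their mean ratios had a median of -0.39 and reached -1.92, and 3 of them were at least 2-fold lower in HD cells. Both array pairs were below 0 in all 12 conditions for 10 of the 67. They were less bright than the 189 clones, with a median log2 intensity of 9.27, and 14 of them (20.9%) lay among the brightest 25% of all clones and 12 among the dimmest 25%. With arrays 3 and 4 turned, the same rule would choose 1624 clones lower in HD cells. These values describe clones chosen by their ratio and were not tested.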
